A study of Mus musculus with 6 samples.

Results

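Growth factors and the receptors that bind them were followed in WT mouse embryonic fibroblasts (MEFs) after acute knockdown of *Yme1l*. The members are 48 genes of the FGF, PDGF, VEGF, HGF, IGF and EGF families, of 3 cytokine-like factors and of the neurotrophic factors, and they comprise 26 ligands, 16 receptors and 6 IGF-binding proteins. They were found by gene name among the 51499 loci of the count table, where a locus can carry several names separated by commas. The list was put together by family and function, except that *Gdnf* was noted for its rise in this comparison, so the values of *Gdnf* are a description and are given with no test. Enough reads for a test were counted at 44 members, among 14499 loci tested in all. *Fgf5* and *Fgfr4* had 0 counts in all 6 libraries, which is under the limit of 3 counts that a count of 0 allows. *Areg* had between 1 and 11 counts and *Ntf3* between 0 and 2 counts in each library, and neither was tested.

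Both groups are WT MEFs. The cells were transfected with a control siRNA (Scr siRNA, 3 cultures) or with siRNA against *Yme1l* (Yme1l siRNA, 3 cultures) and were collected after 72 h. The methods of the study describe its WT line as carrying loxP sites around *Yme1l* and still holding the gene. By the same methods the line was expanded from an individual clone. Its immortalization is put down to SV40 T antigen in the methods of the study and to 3T3 passage in the labels, and which of these holds was not tested. On that description all 6 libraries come from 1 line grown in parallel cultures, and p-values measure the spread between these cultures. YME1L is a protease of the mitochondrial inner membrane.

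Most of these ligands are secreted, or cut from the cell surface by proteases, and bind receptors of the same or a neighbouring cell. Most receptor tyrosine kinases among the members pair up on binding and phosphorylate each other. They recruit adaptor proteins that signal through RAS and ERK or through PI3K and AKT. Fibroblasts are known both as a source of such factors and as cells that grow in response to PDGF, FGF and IGF. IGF-binding proteins hold IGFs outside the cell and set how much reaches the receptor.

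The libraries held between 37260605 and 45205207 counts. *Yme1l1*, the targeted gene (chromosome 2, positions 23156369 to 23199260 of GRCm38), was at 170, 171 and 171 CPM (counts scaled by library size) in the Scr siRNA cultures and at 31.6, 23.4 and 45 CPM in the Yme1l siRNA cultures. These were 18.5%, 13.7% and 26.4% of the Scr siRNA mean, so Yme1l siRNA replicate 3 kept the most transcript. Fibroblast identity was checked with 13 marker genes, of which collagen I, collagen III, fibronectin and vimentin transcripts were abundant, whereas *Thy1* had at most 1 count in a library and *Lum* was too low for a test. Of the 11 markers tested, 10 fell and 0 rose after Yme1l siRNA, and the summed level of the list went from between 35700 and 43600 CPM to between 18700 and 23100 CPM. Beside the members that fell, this decline of fibroblast transcripts is a measured fact whose part in the results was not tested. Markers of other cells were read too, and of 8 epithelial markers 1 could be tested (*Krt8*, with 1 count in each Scr siRNA library and 24, 31 and 23 counts after Yme1l siRNA), and of the neural and glial and the skeletal muscle markers tested 1 of 4 and 0 of 1 rose. In bulk RNA, fewer cells of a kind and less RNA per cell cannot be told apart.

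Changes were tested with edgeR's quasi-likelihood test, adjusted by the Benjamini-Hochberg method over all loci tested, and a member is said to have risen or fallen where its adjusted p was under 0.05. Of the 43 members tested other than *Gdnf*, 17 rose, 12 fell and 14 did not pass. This compares with 28.4% of all loci tested that rose and 29.6% that fell, 58.0% in either direction, against 39.5%, 27.9% and 67.4% of these members. A rise of at least 2-fold was seen at 11 of the 43 members, against 8.18% of all loci, and a fall of at least 2-fold at 4 members, against 7.28% of all loci. At 31 of the 43 the 3 cultures of 1 group lay wholly above those of the other, against 65.4% of all loci. The median log2 fold change of the 44 members was 0.17, and that of all loci was 0.01. The counts in each direction were then taken by role. *Gdnf*, noted for its rise, was certain to count among the higher ligands. With it, 11 of 23 ligands tested were higher and 4 lower, whereas 3 of 15 receptors were higher and 7 lower. Among 6 binding proteins, 4 were higher and 1 was lower. The list was drawn up with results of these data known, so its counts describe these genes and are no test of them.

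The 250 bases before the annotated starts were read for members that changed at least 2-fold. RefSeq promoter windows of GRCm38.p6 were on hand for 40 of the 48 members, at 56 starts. Both strands were searched for AP-1 (TGANTCA), CRE (TGACGT), an ISRE core (GAAA, any 2 bases, GAAA), CARE (TGATGNAA), ETS (CCGGAA), TEAD (GGAATG) and GC box (GGGCGG) letters, and matches may overlap. Shown here are the windows of the 3 members that were higher and held CRE letters, *Gdnf*, *Bdnf* and *Flt1*, together with those of *Igfbp7* and *Igfbp5*, which had the steepest rise and fall among the binding proteins. Capitals mark the motif matches and each window reads 5′ to 3′ along the gene, ending at the base before the start.
Gdnf, chr15:7809798-7810047, plus strand, CRE: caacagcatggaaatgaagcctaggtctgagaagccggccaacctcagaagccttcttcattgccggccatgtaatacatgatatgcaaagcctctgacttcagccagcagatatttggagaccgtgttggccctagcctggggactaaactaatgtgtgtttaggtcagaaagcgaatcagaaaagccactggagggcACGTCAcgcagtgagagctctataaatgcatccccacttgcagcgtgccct
Bdnf, chr2:109692186-109692435, plus strand, CRE: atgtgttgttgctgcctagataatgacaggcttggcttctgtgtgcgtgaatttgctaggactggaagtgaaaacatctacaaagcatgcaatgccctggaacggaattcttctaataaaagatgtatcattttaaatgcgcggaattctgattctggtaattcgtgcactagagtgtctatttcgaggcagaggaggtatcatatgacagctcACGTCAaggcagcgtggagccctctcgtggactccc
Flt1, chr5:147726012-147726261, minus strand, CRE and GC box: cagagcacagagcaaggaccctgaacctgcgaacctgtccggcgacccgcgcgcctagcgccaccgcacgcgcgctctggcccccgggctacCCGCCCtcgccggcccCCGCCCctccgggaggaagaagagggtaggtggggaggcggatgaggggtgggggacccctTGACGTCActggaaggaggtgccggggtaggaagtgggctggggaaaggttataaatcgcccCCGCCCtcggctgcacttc
Igfbp7, chr5:77408046-77408295, minus strand, GC box: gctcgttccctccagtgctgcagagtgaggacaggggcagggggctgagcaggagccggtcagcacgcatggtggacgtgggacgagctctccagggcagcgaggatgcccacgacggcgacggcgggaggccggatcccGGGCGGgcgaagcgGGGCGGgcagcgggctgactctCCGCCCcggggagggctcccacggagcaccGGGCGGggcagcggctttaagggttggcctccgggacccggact
Igfbp5, chr1:72874866-72875115, minus strand, TEAD: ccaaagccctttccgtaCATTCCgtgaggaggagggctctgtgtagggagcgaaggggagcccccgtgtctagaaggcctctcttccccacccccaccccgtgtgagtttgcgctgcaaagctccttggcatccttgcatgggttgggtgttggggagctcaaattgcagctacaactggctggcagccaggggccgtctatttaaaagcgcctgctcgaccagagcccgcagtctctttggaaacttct
CRE letters lay 51 to 46 bases before the upstream of the 2 *Gdnf* starts and 36 to 31 bases before 1 of the 7 *Bdnf* starts. In the *Flt1* window they were read on both strands, as an overlapping pair between 81 and 74 bases before the start. The *Igfbp7* window held 4 GC boxes and was 74.0% G and C, against a median of 52.4% over all 32851 promoter windows.

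Over the members' starts, 12.5% held CRE letters, against 6.47% of all promoter windows. AP-1 letters stood at 8.93% of the members' starts and 6.75% of all, ETS at 12.5% and 12.0%, and TEAD at 16.1% and 12.6%. The ISRE core was found at 5.36% and 2.98%, CARE at 0 of 56 starts and 3.45% of all, and GC boxes at 55.4% and 32.7%. Split by call and counting *Gdnf*, CRE letters stood at 3 of 26 starts of risen members, 1 of 10 starts of fallen members and 2 of 15 starts of members that did not pass. These are matches of letters in a short window and say nothing about binding.

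*Gdnf* and *Bdnf* encode survival factors for neurons that fibroblasts also transcribe. *Gdnf* (chromosome 15, positions 7810846 to 7837575) was at 19.4, 19.3 and 19.9 CPM in the Scr siRNA cultures and at 77.4, 74.1 and 66.8 CPM after Yme1l siRNA. All 3 knockdown cultures lay above the controls, a 3.73-fold difference (log2 fold change 1.90). *Bdnf* rose 2.34-fold, from 18.0, 18.4 and 19.4 CPM to 49.1, 48.6 and 33.1 CPM (adjusted p = 0.000176). The groups did not overlap, and Yme1l siRNA replicate 3 was the lowest of the raised cultures. A stretch of 896 bases of the *Bdnf* exons, or 14.4% of their length, is shared with an antisense transcript, and how strand entered the counting is not given in the sources used here. The largest such shares among the other members were 26.1% at *Pdgfa* and 13.9% at *Fgfr3*. *Gfra1*, the receptor subunit that binds GDNF, was at 61.6, 53.0 and 52.2 CPM and at 52.0, 53.0 and 49.4 CPM. Its groups overlapped (log2 fold change -0.11 ± 0.08, standard error, adjusted p = 0.264).

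The partners of these factors were also read. *Ret*, the kinase that signals for GDNF, rose at a low level, from 2.26, 1.08 and 1.59 CPM to 3.29, 3.20 and 2.63 CPM (log2 fold change 0.88 ± 0.27, adjusted p = 0.0200). *Ntrk2*, the kinase receptor of BDNF, had at most 2 counts in any library. *Ntrk3*, the receptor of NT-3, fell by 1.67 on the log2 scale (adjusted p = 0.000289).

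**Figure D1:**
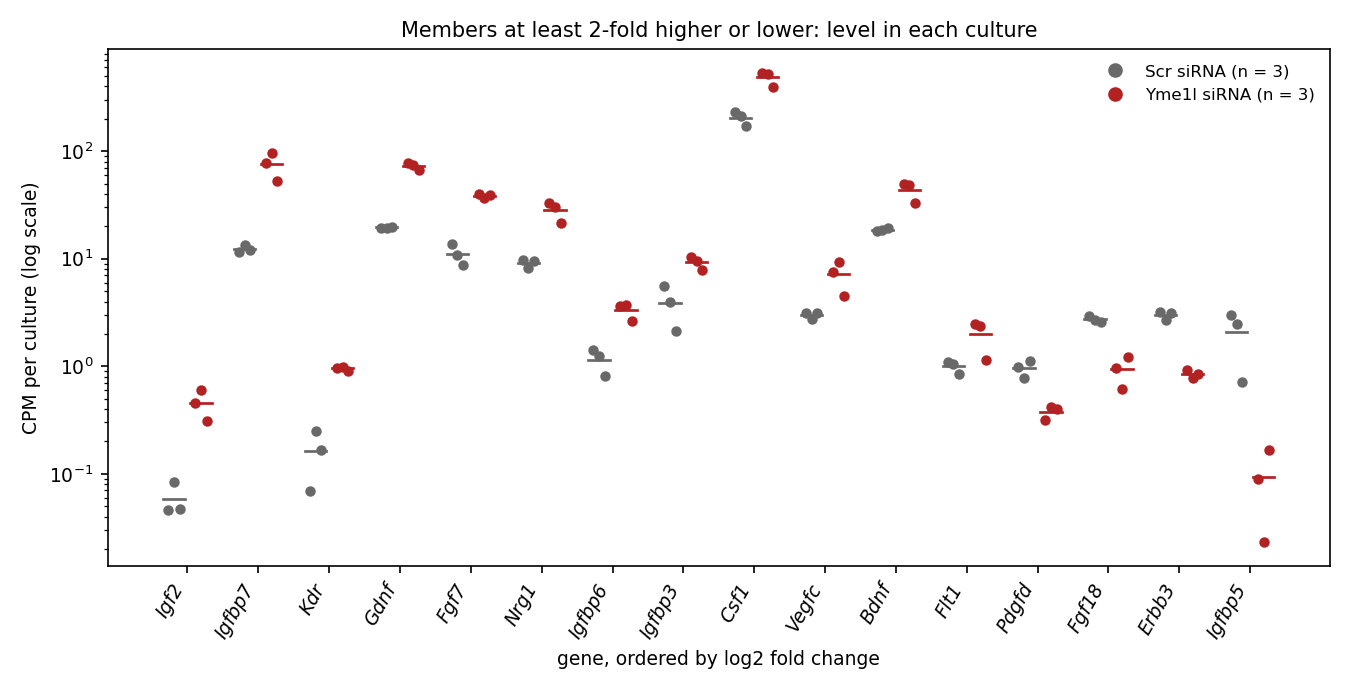
CPM in each culture (vertical axis, log scale) of the members at least 2-fold higher or lower, ordered along the horizontal axis by log2 fold change, with grey points for Scr siRNA, red points for Yme1l siRNA and a line at each mean (n = 3 cultures). No red point overlaps the grey ones of the same gene, *Gdnf* goes from about 19.5 to 72.7 CPM on average, and *Flt1* shows the narrowest gap, between 1.09 and 1.14 CPM.

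The cytokine-like ligands rose at all 3 members. *Csf1*, which encodes the growth factor of macrophages, went from 229, 212 and 173 CPM to 536, 527 and 393 CPM, a 2.37-fold rise (log2 fold change 1.25 ± 0.14, adjusted p = 0.000154). Its lowest knockdown culture, again replicate 3, was well above the highest control. *Lif*, a cytokine that signals through gp130, rose from 39.6, 38.2 and 43.2 CPM to 56.6, 58.3 and 62.3 CPM (adjusted p = 0.000317). *Kitl*, the ligand of KIT, rose 1.38-fold from between 51.7 and 59.1 CPM to between 71.4 and 82.7 CPM (adjusted p = 0.00143). *Csf1r*, the CSF1 receptor, rose too, from 134, 126 and 109 CPM to 210, 183 and 222 CPM (log2 fold change 0.74 ± 0.10, adjusted p = 0.000431). Leukocyte markers other than *Csf1r* and *Cd68* had at most 3 counts in any library, and 4 of the 8 were at 0 throughout. Their summed level, nearly all of it from those 2 genes, was 162 to 178 CPM in the controls and 241 to 254 CPM after Yme1l siRNA, and its part in the rise of *Csf1* was not tested. Of these 2 genes *Csf1r* rose, while *Cd68* had means of 46.8 and 42.8 CPM in overlapping groups (log2 fold change -0.13 ± 0.25, adjusted p = 0.677). *Lifr*, the LIF receptor, fell by 0.47 on the log2 scale (adjusted p = 0.0101), and *Kit* had at most 2 counts.

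Among FGF ligands, *Fgf7* and *Fgf18* moved apart. *Fgf7*, the keratinocyte growth factor that fibroblasts make for epithelia, rose 3.48-fold, from 13.8, 10.8 and 8.72 CPM to 39.6, 36.8 and 39.3 CPM (log2 fold change 1.80 ± 0.15, adjusted p = 3.25e-05). *Fgf18*, a factor of cartilage and bone, fell 2.94-fold, from 2.93, 2.72 and 2.58 CPM to 0.969, 0.621 and 1.21 CPM (log2 fold change -1.55 ± 0.25, adjusted p = 0.000935). Neither gene's groups overlapped. Per length of exon, shares were taken over *Fgf5*, *Fgf7*, *Fgf10* and *Fgf18*, the FGF ligands among the members with a locus of their own. *Fgf7* made up 55.0% ± 3.77 (SD, n = 3) of their sum in the Scr siRNA cultures and 91.9% ± 2.47 after Yme1l siRNA. *Fgf18* went from 37.9% ± 3.74 to 6.01% ± 1.59. *Fgf1* and *Fgf21* are not among the members and were not in this sum. *Fgf10*, a relative of *Fgf7*, was at 2.19, 2.30 and 1.59 CPM and at 1.24, 0.713 and 1.90 CPM with overlapping groups (adjusted p = 0.127), and without Yme1l siRNA replicate 3 its log2 fold change was -1.05 (adjusted p = 0.0169). *Fgf2* shares its locus with *Bbs12*, and this locus had overlapping groups, with 14.7 to 19.6 CPM over all cultures (log2 fold change -0.02 ± 0.12, adjusted p = 0.902).

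Changes of the FGF receptors were small. *Fgfr1*, the FGF receptor with the highest level per length, was at 392, 387 and 395 CPM and at 437, 467 and 412 CPM. Its groups did not overlap, but the log2 fold change of 0.16 ± 0.07 did not pass (adjusted p = 0.0767), although it did without Yme1l siRNA replicate 3 (0.20, adjusted p = 0.0359) or when loci averaging under 50 counts were dropped (adjusted p = 0.0396). *Fgfr3* had the same pattern at 6.16 to 7.18 CPM against 7.36 to 8.54 CPM (adjusted p = 0.156). *Fgfr2*, a spliced form of which is the receptor of FGF7, is joined with *Ctbp2* in 1 locus that fell by 0.17 on the log2 scale (adjusted p = 0.0488). Over 14 settings its adjusted p lay between 0.0414 and 0.170, so this call rests on the choice of processing. *Fgfrl1*, an FGF receptor without a kinase domain, fell by 1.88 on the log2 scale, from 79.7, 83.0 and 86.1 CPM to 20.9, 23.1 and 23.8 CPM (adjusted p = 3.26e-06).

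In the PDGF family both receptors and 2 of 4 ligands fell, and 0 members rose. These counts stand beside 29.6% of all loci tested that fell and 28.4% that rose. *Pdgfra*, the PDGF receptor with the highest level per length, fell from 580, 586 and 498 CPM to 346, 340 and 321 CPM (log2 fold change -0.72 ± 0.08, adjusted p = 0.000157). *Pdgfrb* fell from 207, 191 and 179 CPM to 119, 112 and 105 CPM (log2 fold change -0.78 ± 0.08, adjusted p = 9.81e-05). The lowest control lay above the highest knockdown culture at both genes. Their proportion moved little, and *Pdgfra* made up 61.1% ± 1.31 of the pair per exon length in the Scr siRNA cultures and 62.2% ± 0.712 after Yme1l siRNA, a difference smaller than the SD of the controls. These receptors are widely used to mark fibroblasts, and the fall of fibroblast markers given above moved with them.

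Of the PDGF ligands, *Pdgfa* fell 1.42-fold, from between 62.6 and 66.9 CPM to between 40.1 and 50.7 CPM (adjusted p = 0.00177). *Pdgfd* fell 2.54-fold at a low level, from 43, 28 and 47 counts to 14, 18 and 17 counts (log2 fold change -1.35 ± 0.27, adjusted p = 0.00291). *Pdgfc*, another PDGF ligand, was at 115, 112 and 100 CPM and at 131, 107 and 132 CPM. Its groups overlapped (adjusted p = 0.153), and without Yme1l siRNA replicate 2 the log2 fold change was 0.28 (adjusted p = 0.0196). *Pdgfb* had 11, 4 and 3 counts against 10, 34 and 10 (adjusted p = 0.0846), with 1 culture, Yme1l siRNA replicate 2, standing above the others. Without Yme1l siRNA replicate 3 its adjusted p was 0.0494. Per exon length the 4 PDGF ligands summed to 44.3, 43.8 and 40.1 RPKM (CPM per kilobase of exon) in the Scr siRNA cultures. After Yme1l siRNA the sums were 38.8, 36.7 and 42.5 RPKM, so the groups overlapped.

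In the VEGF family the receptors and *Vegfc* rose from low levels, whereas the abundant ligand did not pass the test. *Vegfa*, the main inducer of vessel growth, was at 295, 284 and 267 CPM and at 260, 288 and 265 CPM, with overlapping groups (log2 fold change -0.06 ± 0.07, adjusted p = 0.527). *Vegfc*, a lymphatic vessel factor, rose 2.37-fold, from 3.12, 2.77 and 3.15 CPM to 7.58, 9.36 and 4.49 CPM (log2 fold change 1.24 ± 0.25, adjusted p = 0.00306). Replicate 3 was once more the lowest knockdown culture, at a level still above all controls. *Vegfb* was at 23.6 to 27.2 CPM and at 25.0 to 37.6 CPM (adjusted p = 0.145), and without Yme1l siRNA replicate 3 its log2 fold change was 0.38 (adjusted p = 0.0303). Per length, *Vegfa* made up 79.6% ± 0.991 of the summed *Vegfa*, *Vegfb* and *Vegfc* transcripts in the Scr siRNA cultures. After Yme1l siRNA it made up 74.6% ± 3.44. *Vegfd* and *Pgf* are not among the members and were not in this sum.

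*Kdr*, which encodes the main VEGF receptor of endothelium, had 3, 9 and 7 counts in the Scr siRNA cultures and 43, 43 and 38 counts after Yme1l siRNA (log2 fold change 2.57 ± 0.38, adjusted p = 0.00058). The groups were far apart, at means of 0.162 and 0.953 CPM. *Flt1*, which binds VEGF tightly and limits its signal, had 47, 38 and 36 counts and then 110, 104 and 48 counts (log2 fold change 1.01 ± 0.32, adjusted p = 0.0234). The call at *Flt1* depended on single cultures, with an adjusted p of 0.0582 without Scr siRNA replicate 2, 0.0747 without Scr siRNA replicate 3, 0.09 without Yme1l siRNA replicate 1 and 0.0701 without Yme1l siRNA replicate 2. *Flt4*, the VEGFC receptor, rose from 2.70, 2.44 and 2.80 CPM to 11.8, 18.9 and 7.76 CPM (log2 fold change 2.27 ± 0.30, adjusted p = 0.000307). Of 8 endothelial markers 3 could be tested and 1, *Tek*, rose, while *Pecam1* and *Erg* had overlapping groups. *Emcn* and *Cldn5* were at 0 throughout, and *Tie1* had at most 2 counts. *Esam*, not tested, had 3, 3 and 3 counts in the Scr siRNA cultures and 25, 22 and 9 after Yme1l siRNA, with groups apart. *Cdh5*, not tested either, had 10, 6 and 4 counts and then 23, 10 and 25, with overlapping groups. The summed level of the 8 markers was 5.97 to 8.43 CPM in the Scr siRNA cultures and 9.02 to 10.4 CPM after Yme1l siRNA, and its part in the rise of the receptors was not tested.

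*Met*, the HGF receptor, rose 1.38-fold, from 201, 192 and 213 CPM to 296, 255 and 288 CPM (log2 fold change 0.47 ± 0.08, adjusted p = 0.00125). Its ligand *Hgf* was at 2.59, 2.16 and 2.61 CPM and at 2.73, 1.68 and 2.54 CPM with overlapping groups (log2 fold change -0.08 ± 0.22, adjusted p = 0.763).

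In the IGF system, 4 of the 6 binding proteins rose and 1 fell. *Igfbp7*, a secreted protein that binds IGF weakly, rose 6.11-fold, from 11.5, 13.5 and 12.0 CPM to 77.3, 96.4 and 52.8 CPM (log2 fold change 2.61 ± 0.20, adjusted p = 2.44e-05). Even its lowest knockdown culture, replicate 3, was far above the controls. *Igfbp6*, which prefers IGF2, rose 2.86-fold, from 1.41, 1.25 and 0.806 CPM to 3.61, 3.70 and 2.61 CPM (adjusted p = 0.00108). *Igfbp3*, the main IGF carrier of blood, rose 2.39-fold, from 5.54, 3.94 and 2.13 CPM to 10.4, 9.48 and 7.90 CPM (log2 fold change 1.26 ± 0.30, adjusted p = 0.00632). The controls were spread widely here, though below all knockdown cultures. *Igfbp2* rose 1.61-fold (adjusted p = 0.0012), from between 15.3 and 19.5 CPM to between 26.4 and 32.1 CPM.

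*Igfbp5* went the other way, from 129, 90 and 30 counts to 4, 1 and 7 counts, which is a 21.6-fold fall (log2 fold change -4.43 ± 0.69, adjusted p = 0.000747). So few counts leave the size of the fall uncertain, and the log2 fold change was -5.11 without Yme1l siRNA replicate 3 and -3.98 without Yme1l siRNA replicate 2. *Igfbp4*, the binding protein with the highest level per length in the controls, was at 325, 288 and 192 CPM and at 248, 292 and 200 CPM. Its groups overlapped and its log2 fold change was -0.12 ± 0.20 (adjusted p = 0.62).

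The make-up of the binding protein transcripts shifted with these changes. Per length of exon *Igfbp4* made up 75.7%, 72.7% and 68.7% of the 6 transcripts in the Scr siRNA cultures and 39.0%, 39.4% and 41.9% after Yme1l siRNA. *Igfbp7* took 9.82%, 12.5% and 15.7% in the controls and 44.4%, 47.6% and 40.4% in the knockdown cultures. The ranges of the groups are far apart for both genes, also where the longest coding transcript served as the length, with means of 71.6% and 41.3% for *Igfbp4* and 11.0% and 39.8% for *Igfbp7*. The summed level of the 6 was 97.3, 89.5 and 63.3 RPKM (CPM per kilobase of exon) and then 144, 168 and 108 RPKM.

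**Figure D2:**
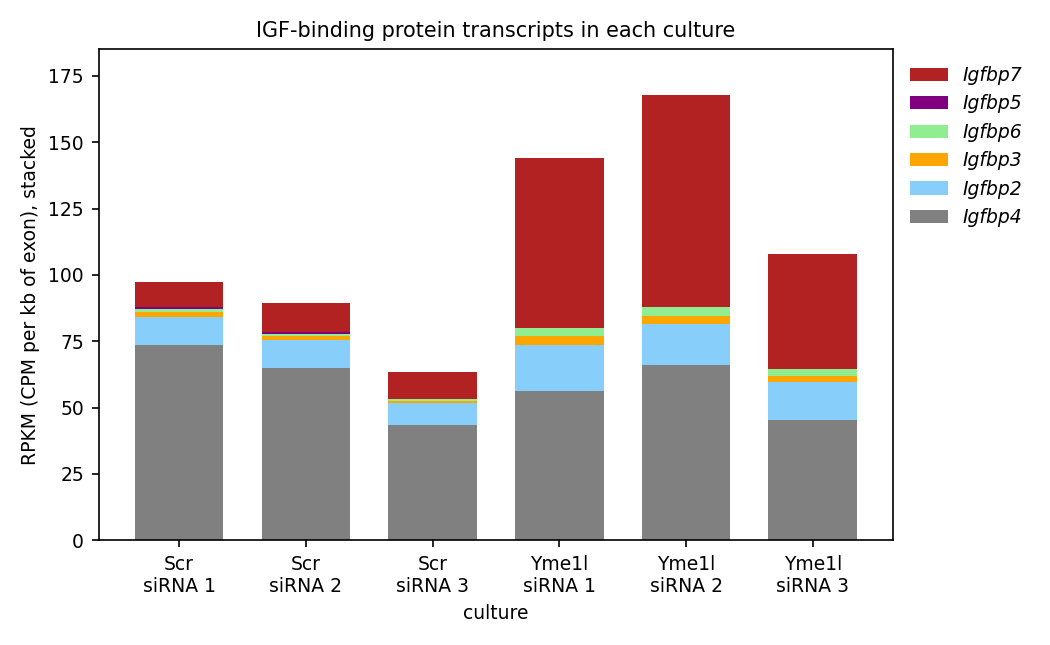
Stacked level of the 6 IGF-binding protein transcripts (vertical axis, RPKM) in each of the 6 cultures along the horizontal axis, 1 colour per gene. The grey *Igfbp4* part lies between 43.5 and 73.6 RPKM in all cultures, while the red *Igfbp7* part is between 9.55 and 11.2 RPKM in the Scr siRNA cultures and between 43.7 and 79.8 RPKM after Yme1l siRNA.

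IGF ligands were scarce. *Igf1* was at 7.30, 4.77 and 3.65 CPM and at 5.50, 5.68 and 2.21 CPM with overlapping groups (log2 fold change -0.23 ± 0.37, adjusted p = 0.613). The locus that joins *Igf2*, an imprinted growth factor of the embryo, with AC013548.1 had 2, 3 and 2 counts in the controls and 20, 26 and 13 counts after Yme1l siRNA. Set against 3 counts per library, the highest control count, its mean was 6.07-fold higher (log2 fold change 2.91 ± 0.48, adjusted p = 0.000978). This fold is no lower limit, because counts this low leave the size of the rise uncertain. After knockdown only *Igfbp5* had a lower level per length among the members tested, and the *Igf2* reads cannot be told apart from those of the joined name. Of the receptors, *Insr*, the insulin receptor, fell 1.96-fold, from 52.1, 46.9 and 63.6 CPM to 28.2, 26.2 and 28.7 CPM (log2 fold change -0.97 ± 0.11, adjusted p = 0.000152). *Igf1r*, its close relative, fell 1.28-fold, from between 56.2 and 58.7 CPM to between 37 and 50.2 CPM (adjusted p = 0.0195, and 0.0555 without Scr siRNA replicate 2). *Igf2r*, which carries IGF2 to lysosomes and is no kinase, was at 194, 198 and 261 CPM and at 239, 217 and 225 CPM (adjusted p = 0.684).

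Ligands of the EGF family rose at 3 of the 4 members tested. *Nrg1*, the neuregulin that binds ERBB3 and ERBB4, rose 3.08-fold, from 9.75, 8.23 and 9.60 CPM to 33.3, 30.1 and 21.6 CPM (log2 fold change 1.62 ± 0.16, adjusted p = 7.17e-05). *Hbegf*, the EGF family ligand with the highest level per length, rose 1.96-fold, from 46.1, 45.5 and 43.8 CPM to 88.4, 96.4 and 81.0 CPM (adjusted p = 2.86e-05). *Ereg*, epiregulin, rose 1.98-fold, from 14.2, 13.8 and 11.4 CPM to 25.8, 26.8 and 25.6 CPM (adjusted p = 7.42e-05). None of these groups overlapped. *Tgfa* fell 1.62-fold (adjusted p = 0.0246), a call that was lost without Scr siRNA replicate 1 (adjusted p = 0.0841), Scr siRNA replicate 3 (0.0645) or Yme1l siRNA replicate 1 (0.0861). Per exon length, the 5 EGF family ligands among the members summed to 14.6, 14.1 and 13.4 RPKM and then to 28.1, 29.9 and 25.5 RPKM. *Hbegf* supplied 66.6% ± 1.18 of this in the controls and 65.9% ± 0.839 after knockdown, while the lowest summed level after knockdown lay above the highest control.

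Of the 3 EGF family receptors 2 fell and 0 rose. *Erbb3*, which binds neuregulin, fell 3.52-fold, from 3.19, 2.69 and 3.15 CPM to 0.924, 0.782 and 0.854 CPM (log2 fold change -1.82 ± 0.19, adjusted p = 9.25e-05), and the groups were far apart. *Erbb4*, the other neuregulin receptor, fell by 3.61 on the log2 scale, from between 1.40 and 1.78 CPM to between 0.0902 and 0.166 CPM (adjusted p = 3.73e-05). The ligand *Nrg1* and the transcripts of both its receptors thus moved in opposite directions. *Erbb2*, the EGF family receptor with the highest level per length, was at 49.7, 49.9 and 55.1 CPM and at 43.8, 45.7 and 44.7 CPM. Its 1.15-fold fall (adjusted p = 0.0278) was lost under several settings, with adjusted p of 0.0747 without Scr siRNA replicate 3, 0.113 without Yme1l siRNA replicate 1 and 0.0503 without Yme1l siRNA replicate 3. *Egfr* was at 46.3, 40.2 and 35.6 CPM and at 41.5, 43.7 and 29.1 CPM, with overlapping groups (adjusted p = 0.629).

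Levels of different genes were compared per length of exon. In the Scr siRNA cultures *Vegfa* stood highest at 65.8 ± 3.36 RPKM (SD, n = 3), followed by *Igfbp4* at 60.7 ± 15.5, *Pdgfra* at 55.3 ± 4.91, *Fgfr1* at 39.6 ± 0.422 and *Csf1* at 38.7 ± 5.48 RPKM. Neighbours in this order overlapped over their cultures, except *Pdgfra*, which lay above *Fgfr1*. After Yme1l siRNA *Csf1* stood highest, at 91.9 ± 15.2 RPKM, followed by *Vegfa* at 63.2 ± 3.50 and *Igfbp7* at 62.4 ± 18.1 RPKM. By exon length *Igfbp7* thus moved from place 13 to place 3, *Gdnf* from place 20 to place 11, *Pdgfra* from 3 to 7 and *Pdgfrb* from 6 to 10. At the other end of the order *Flt1*, *Pdgfb*, *Kdr* and *Igf2* had means of at most 0.148 RPKM in either group. Exon length joins all annotated exons of a gene, and the order differed with the longest coding transcript in its place. In the controls *Fgfr1* then stood at place 3 rather than 4, and *Igfbp7* at place 16 rather than 13. After Yme1l siRNA *Csf1*, at a mean of 116 RPKM, was then followed by *Fgfr1* at 87.0, *Vegfa* at 78.5, *Igfbp4* at 64.4 and *Igfbp7* at 62.9 RPKM.

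**Figure D3:**
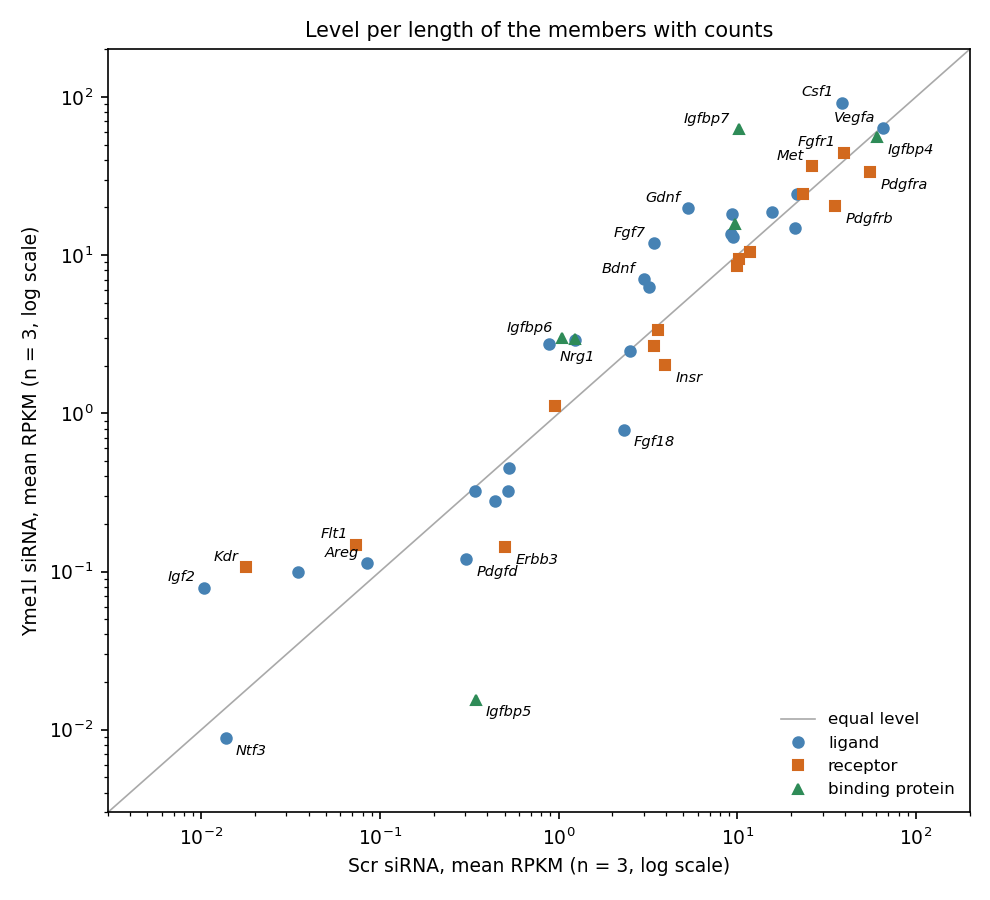
Mean level per exon length after Yme1l siRNA (vertical axis, RPKM, log scale) against that after Scr siRNA (horizontal axis, RPKM, log scale) for the 46 members with counts, n = 3 cultures each, with a grey line of equal level. *Csf1* (38.7 and 91.9 RPKM) and *Igfbp7* (10.2 and 62.4 RPKM) lie above the line among the abundant members, *Pdgfra* (55.3 and 33.5 RPKM) lies below it, and *Igfbp5* (0.343 and 0.0155 RPKM) lies furthest below.

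Cultures of the knockdown group differed among themselves. Of the 18 members that were higher, *Gdnf* included, 14 had their lowest knockdown value in Yme1l siRNA replicate 3 (77.8%), whereas this culture was lowest at 45.8% of all loci that rose. The same culture kept the most *Yme1l1* transcript. Whether the *Yme1l1* level had a part in the members' level was not tested, and 3 cultures are too few for a correlation. Among the 12 members that fell, each knockdown culture was lowest at 4. Yme1l siRNA replicates 1, 2 and 3 were highest at 5, 2 and 5 of them, and replicate 3 was highest at 47.6% of all loci that fell. In the control group, Scr siRNA replicate 3 was lowest at 8 of the 18 higher members (44.4%), against 38.5% of all loci that rose.

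Other genes of these pathways were read from lists chosen by function. Over all loci tested 28.4% rose and 29.6% fell, and the counts of each list are a description beside these shares. Of 35 partner ligands and receptors tested, 9 rose and 12 fell (median log2 fold change -0.07), and 5 rose without Scr siRNA replicate 2. Among the largest rises were those of *Flt4* and of *Fgf21*, a metabolic FGF with at most 23 counts in a library (log2 fold change 1.32 ± 0.45, adjusted p = 0.0333). The largest falls were those of *Erbb4*, *Alk*, a neural receptor kinase (-2.55 ± 0.30, adjusted p = 0.00018), and *Fgfrl1*.

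Of 26 genes for the processing and release of growth factors, 8 rose and 8 fell (median 0.04). *Fgfbp1*, which frees FGFs from the matrix, rose from 0.162, 0.139 and 0.0948 CPM to 3.76, 3.17 and 1.90 CPM (log2 fold change 4.45 ± 0.38, adjusted p = 3.44e-05). *Stc2*, an inhibitor of the protease that cuts IGF-binding proteins, rose by 1.59 ± 0.12, and *Hpse*, heparanase, by 1.40 ± 0.16 on the log2 scale. *Pappa*, that protease, fell by 1.47 on the log2 scale, from 17.0, 14.3 and 18.1 CPM to 7.28, 5.22 and 5.34 CPM (adjusted p = 0.000104). *Sulf2*, which trims sulfate from heparan chains, fell by 1.35, and *Adam17*, the main sheddase of EGF family ligands, fell by 1.21, from 133, 130 and 142 CPM to 57.9, 51.4 and 66.3 CPM (adjusted p = 3.15e-05).

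Adaptors and signal relays downstream of the receptors numbered 36 tested genes, of which 9 rose and 13 fell (median -0.05). *Irs1* and *Irs2*, the docking proteins of the insulin and IGF1 receptors, rose by 1.5 ± 0.08 and 1.37 ± 0.14 on the log2 scale, and *Pik3cb*, a PI3K catalytic subunit, by 0.97 ± 0.09. *Insr* and *Igf1r* were lower in the same cultures. *Gab1*, a docking protein of MET and EGFR, fell by 1.57, *Stat3* by 1.42 and *Pik3ca*, another catalytic subunit, by 1.09 on the log2 scale (adjusted p between 5.59e-06 and 5.09e-05 for the 3).

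Among 23 feedback inhibitors of receptor tyrosine kinases, 7 rose and 7 fell (median -0.01). *Spry4*, a Sprouty protein that dampens RAS, rose from 2, 4 and 8 counts to 44, 66 and 71 counts (log2 fold change 3.57 ± 0.43, adjusted p = 0.000207). *Dusp4*, an ERK phosphatase, rose by 1.5 ± 0.09 and *Errfi1*, which blocks the EGF receptor kinase, by 1.23 ± 0.07 on the log2 scale. *Socs2*, which restrains growth hormone signalling, fell by 1.90, *Il17rd*, an FGF antagonist, by 1.23 and *Cblb*, a ubiquitin ligase for receptors, by 1.22 on the log2 scale.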

How the data were processed

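RNA-Seq was performed on poly(A)-selected RNA from WT MEFs at 72 h of Scr or Yme1l siRNA treatment (3 cultures each). Libraries were stranded. According to the submitters' processing notes and the methods of the study, the authors mapped reads to GRCm38 with HISAT2 2.0.4, assembled transcripts with StringTie 1.3.3 and compared the groups with Cuffdiff 2.2.1. The authors deposited raw counts per locus, without normalization; the counting program and its use of strand are not given in the sources used here. Their other table holds the authors' own comparison (group levels, fold changes, test statistic, p-values and q-values) and was not used.

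Counts were tested with edgeR 4.0.16 (TMM factors, filterByExpr with a minimum of 10 counts and 15 in total, quasi-likelihood F test, Benjamini-Hochberg adjustment, threshold 0.05) in R 4.3.3. Standard errors were computed as the absolute log2 fold change over the root of F, and the biological coefficient of variation was 0.131. Library totals lay between 37260605 and 45205207, and no pair within a group agreed within counting noise (chi-square per degree of freedom from 10.3 to 76.3). Of 51499 loci, 635 join several gene names, as do 398 of the 14499 tested. Coordinates and exon lengths came from GENCODE M21 on GRCm38, and promoter windows from RefSeq on GRCm38.p6. Alternatives were DESeq2 1.42.0, limma-voom (limma 3.58.1), other scale factors, filters and thresholds, loci with 1 name, a replicate block and the removal of single libraries. The longest coding transcript as length was an alternative chosen after seeing the data. On simulated data for the same comparison, Yme1l siRNA against Scr siRNA (14499 genes, 200 changed 2-fold), edgeR recovered 157 of the 200 and called 13 unchanged genes. Far more loci were called in the real data (58.0%), many of them under 2-fold. The simulation therefore checks that the test runs and does not measure its error in these data.

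The members, the gene lists and the tests were chosen with earlier results of these data known. Values in every culture were given for *Gdnf*, for members with an adjusted p under 0.05, groups that did not overlap and a change of at least 2-fold, and for the member with the highest level of each family and role. Further partners were named where a member's own receptor or ligand was described, and from each list the 3 called genes with the largest change in each direction, of which 1 is not reported here. Proteins were not analysed here.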

Additional observations from a re-analysis of the deposited data

How the results depend on the processing

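Members that were higher, *Gdnf* included, numbered between 17 and 21, and those that fell between 9 and 11, when a library was left out. The number higher stayed within 1.5 times of 18 under every alternative run. Of the 12 falls, 4 were at least 2-fold. When loci averaging under 50 counts were dropped, 2 of these were found, because *Igfbp5* and *Pdgfd* were not tested. *Kdr* and *Igf2*, which rose, were not tested in that setting either. Of the partner ligands and receptors, between 5 and 9 rose without a library, against 9 with all, and the cause was not tested. No change of sign past the threshold was found for the members named.

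The replicate numbers are not stated to mark a shared day. Deviations from the group means correlated by 0.0905, 0.167 and 0.255 between the same-numbered cultures, so the numbers were not taken as pairs. With the replicate number as a block, 18 members were higher and 12 fell, and 11 rather than 12 were at least 2-fold higher. *Yme1l1* had a log2 fold change of -2.40, and the partner list had 9 rises and 15 falls. The processing list gave 9 and 8, the relay list 9 and 13, and the feedback list 7 and 7.

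Calls at *Fgfr2*, *Flt1*, *Igf1r*, *Erbb2* and *Tgfa* were lost under at least 1 alternative, and *Fgf10*, *Fgfr1*, *Pdgfb*, *Pdgfc* and *Vegfb* passed under at least 1. Scale factors moved the median of all loci by at most 0.0193. Depth limits *Igf2*, *Kdr*, *Pdgfb*, *Pdgfd*, *Igfbp5*, *Flt1*, *Fgf10*, *Fgf18* and *Hgf*, which had at most 129 counts in any library. Counting intervals would cover counting error only.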

Other observations

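Among the partner ligands and receptors, several further genes of the vessel and neurotrophic systems changed. They were picked from the list after their values were seen. *Angpt2*, an angiopoietin that loosens vessels, fell by 1.07 on the log2 scale (edgeR adjusted p = 0.00222), and *Tek*, the angiopoietin receptor, rose by 0.61 ± 0.17 (adjusted p = 0.0123). Both neuropilins, the co-receptors of VEGF, fell: *Nrp1* by 0.51 (adjusted p = 0.00268) and *Nrp2* by 0.35 (adjusted p = 0.00569). *Vegfd* fell by 0.36 (adjusted p = 0.00376), whereas *Pgf*, placental growth factor, had a log2 fold change of 0.76 ± 0.30 that did not pass (adjusted p = 0.0538). *Artn*, a ligand of the GDNF family, fell by 1.16 (adjusted p = 0.000318), and *Gfra2*, a receptor subunit of that family, rose by 0.60 ± 0.17 (adjusted p = 0.0145).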
